A study of Mus musculus with 17 samples.

Results

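The chemokines, the interleukins, the tumor necrosis factor (TNF) family and the receptors of all 3 were examined as one set of signaling genes in the left ventricle of mice. Members were the protein-coding genes whose symbols begin as chemokine (Ccl, Cxcl, Cx3cl), chemokine receptor (Ccr, Cxcr, Cx3cr, Ackr), interleukin or interleukin receptor (Il and a number), Tnf, Tnfsf or Tnfrsf. There were 138 such genes among the 21798 genes listed, and 92 of them reached 0.5 CPM (read counts scaled to the library total) in at least 3 libraries and entered the tests, in which 16218 genes took part. The rule reads symbols only, but the set was proposed with earlier results of these data known. By role, the 92 tested genes comprised 24 of 30 chemokine ligands, 11 of 19 chemokine receptors, 9 of 21 interleukin ligands, 24 of 34 interleukin receptors, 7 of 12 TNF ligands, 15 of 20 TNF receptors, and 2 others, the interleukin-18 binding protein Il18bp and the amino acid oxidase Il4i1.

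Bulk RNA from the apex of the left ventricle was sequenced from 17 male C57Bl6/J mice, which had undergone transverse aortic constriction (TAC, a band on the aortic arch that loads the left ventricle with pressure) or Sham surgery at 7 to 8 weeks of age. From 1 week after surgery the mice received 6 oral gavages of saline (Veh) or of 50 µg/kg 29P, a prodrug of an RGD-mimetic ligand of the αvβ3 integrin, and tissue was taken 3 weeks after surgery. Of the libraries, each from 1 mouse, 5 were Sham Veh, 3 were Sham 29P, 3 were TAC Veh and 6 were TAC 29P. Before deposit the study had set aside 3 libraries, of which 1 was a TAC Veh library that clustered with the Sham libraries, so the TAC Veh group was partly chosen by its expression.

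Chemokines are small secreted proteins that guide leukocytes along gradients through G protein-coupled receptors, and the atypical receptors (Ackr) bind chemokines without G protein signaling and remove or transport them. Interleukins and TNF ligands act through cytokine and TNF receptors that feed the JAK-STAT and NF-kB arms of signaling. In a pressure-loaded heart, monocytes that carry the chemokine receptor CCR2 are recruited from the blood, fibroblasts and macrophages secrete cytokines, and TNF receptors and gp130 (Il6st) are present on cardiomyocytes.

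Several libraries stood apart. Libraries S18 (TAC 29P), S19 and S20 (Sham Veh) held atrial transcripts, with the atrial light chain gene Myl7 at 335.5 to 894.8 CPM against at most 1.002 CPM in the other 14 libraries. Library S14 (Sham 29P) had the fewest reads, the most genes at 0 and the highest mitochondrial share, 40.0% of CPM in a range of 23.6% to 40.0%, and was the lowest Sham 29P library for 54 of the 92 members and for 55.3% of all genes tested. S2 was the highest TAC Veh library for 56 of the 92 members and for 50.4% of all genes. The depth, derived from the smallest step between CPM values, lay between 14.2 M and 23.8 M reads, with 20.4 M at the median. The 6 cardiomyocyte markers summed to 28755 to 44512 CPM in every library.

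The summed CPM of the 138 members was 893 to 1130 in Sham Veh, 832.6 to 1113 in Sham 29P, 1300 to 1610 in TAC Veh and 1273 to 1525 in TAC 29P, so the TAC and Sham ranges did not overlap under either treatment. After TAC many more members were higher than lower under both treatments. In TAC Veh against Sham Veh, 35 of the 92 members were higher and 2 were lower at an adjusted p of at most 0.05, beside 23.6% and 1.98% of all genes tested. In TAC 29P against Sham 29P, 39 were higher and 3 were lower, beside 31.5% and 1.15% of all genes. The median log2 fold change of the members was 0.75 under Veh and 0.76 under 29P, where the median of all tested genes was 0.33 and 0.36. In bulk tissue, more cells of a type and more RNA per cell cannot be told apart.

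The median above 0 for all genes depended on the scaling. The mitochondrial share of CPM was 29.1% to 38.8% in Sham Veh and 32.9% to 40.0% in Sham 29P. It was lower after TAC, at 23.6% to 27.9% in TAC Veh and 25.1% to 29.4% in TAC 29P, and its part was not tested. With trimmed-mean (TMM) factors the median of all genes fell to 0.01 under Veh and 0.03 under 29P, the members' median was 0.43 in both, and 12 members were higher and 3 lower under Veh (4.33% and 5.83% of all genes), against 15 higher and 4 lower under 29P (6.36% and 4.71%). No member called with the deposited CPM changed direction under TMM. For 29 of the 92 members every TAC Veh value lay above every Sham Veh value (27.6% of all genes), and for 28 every TAC 29P value lay above every Sham 29P value (25.0% of all genes), shares near the background. Between the surgery comparisons, 26 members were higher in both (16.3% of all genes), 9 others were higher under Veh only and 13 under 29P only. These comparisons share no library, but the same fit over all libraries gave both. Their p-values therefore share the estimate of the spread and are not independent. No member differed between treatments in its response to TAC at an adjusted p of at most 0.05, so the lists of one treatment only are not shown to differ.

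The groups were spread unevenly over 4 runs, which are clusters of close values of a 3-digit number in each library label. The labels used here do not say what this number stands for. Of the 6 TAC 29P libraries, 5 were in the first run and S18 in the fourth, whereas the 3 Sham 29P libraries were in 3 different runs. With the run as a covariate, 12 members were higher and 2 lower under 29P, and 5.06% of all genes were higher in place of 31.5%. The 29P calls kept in that fit were Tnfrsf12a, Tnfrsf1a, Tnfrsf1b, Tnfrsf23, Tnfrsf11b, Ccl21a, Ccl21b, Ackr3, Cxcr4, Il2rg, Il1rl2, Il27ra, Ccl11 and Il15, and the other 28 of 42 were lost, among them Ccr2, Ccr1, Ccr7, Cx3cl1, Cx3cr1, Cxcl16, Cxcr6, Ackr4, Il6, Il6st, Il1rn, Il15ra, Il18bp, Tnfsf12, Tnfrsf10b and Tnfrsf13b. Under Veh, 33 of 37 calls were kept, with Tnfrsf10b, Tnfrsf22, Il34 and Il17rc lost. In that fit 43 members were higher and 2 lower under Veh, and 20.5% of all genes were higher in place of 23.6%.

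**Figure D1:**
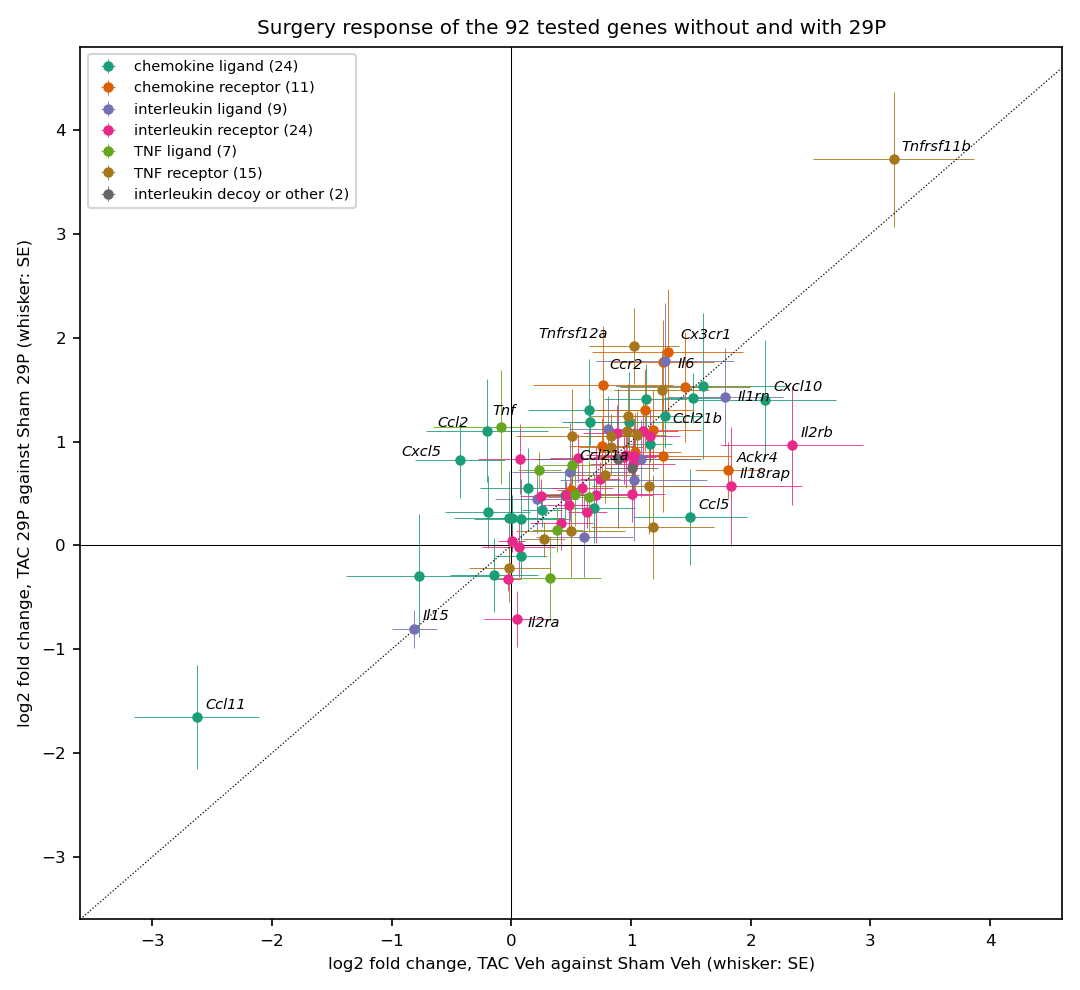
Log2 fold change of each of the 92 tested members on log2(CPM + 0.1), TAC Veh against Sham Veh on the x axis and TAC 29P against Sham 29P on the y axis, with each point 1 gene colored by role and whiskers for the SE. Of the 92 members, 77 lie above 0 in both comparisons and 6 below 0 in both, with Ccl11 and Il15 the 2 called lower in both.

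Read by role, TNF receptors had 8 of 15 members higher under Veh and 8 of 15 under 29P, and interleukin receptors 13 and 10 of 24, where 23.6% and 31.5% of all genes were higher. Chemokine receptors had 4 of 11 higher under Veh and 9 of 11 under 29P, chemokine ligands 7 and 6 of 24, interleukin ligands 2 and 3 of 9, and TNF ligands 0 and 2 of 7. With TMM factors the higher calls under Veh and 29P were 3 and 7 for TNF receptors, 3 and 2 for interleukin receptors, 1 and 1 for chemokine receptors, 4 and 5 for chemokine ligands, and 0 and 0 for both interleukin and TNF ligands, beside 4.33% and 6.36% of all genes. Under both treatments and both scalings 7 members were higher (2.52% of all genes), namely Tnfrsf1b, Tnfrsf23, Tnfrsf11b, Il27ra and the CCL21 genes Ccl21a, Ccl21b and Ccl21d. Under the same 4 tests, Ccl11 and Il15 were lower (0.629% of all genes).

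**Figure D2:**
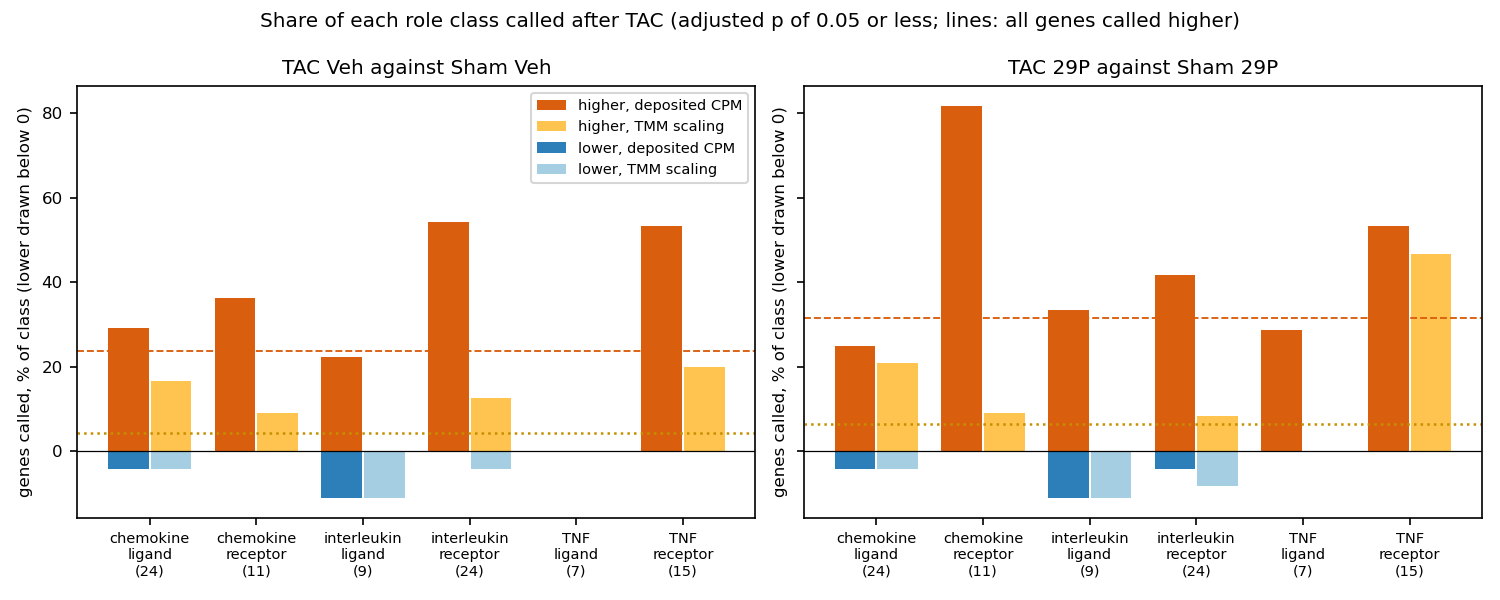
Percent of the tested members of each role class called higher (above 0) or lower (below 0) after TAC, for the deposited CPM and for TMM factors, with dashed and dotted lines for the share of all genes called higher. TNF receptors had 8 of 15 members called higher under each treatment with the deposited CPM, and the number of calls fell in most classes with TMM factors.

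Per kilobase of exon, a scale that allows levels of different genes to be compared, the highest members in Sham Veh were the interleukin-10 receptor chain Il10rb at 29.9 ± 3.31 CPM per kb (SD, n = 5), the TWEAK receptor Tnfrsf12a at 24.4 ± 9.97, Ccl21a at 22.1 ± 2.93, Cxcl12 at 21.2 ± 5.28 and the scavenging receptor Ackr3 at 18.5 ± 1.14. Each neighboring pair in this order differed by less than the larger of its SDs. In TAC Veh, Ccl21a reached 49.2 ± 3.38 CPM per kb (n = 3) and Tnfrsf12a 48.4 ± 17.5, against 30.1 ± 4.98 for Il10rb. In TAC 29P the corresponding levels were 41.8 ± 9.11, 47.4 ± 6.77 and 29.7 ± 1.65 CPM per kb (n = 6).

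**Figure D3:**
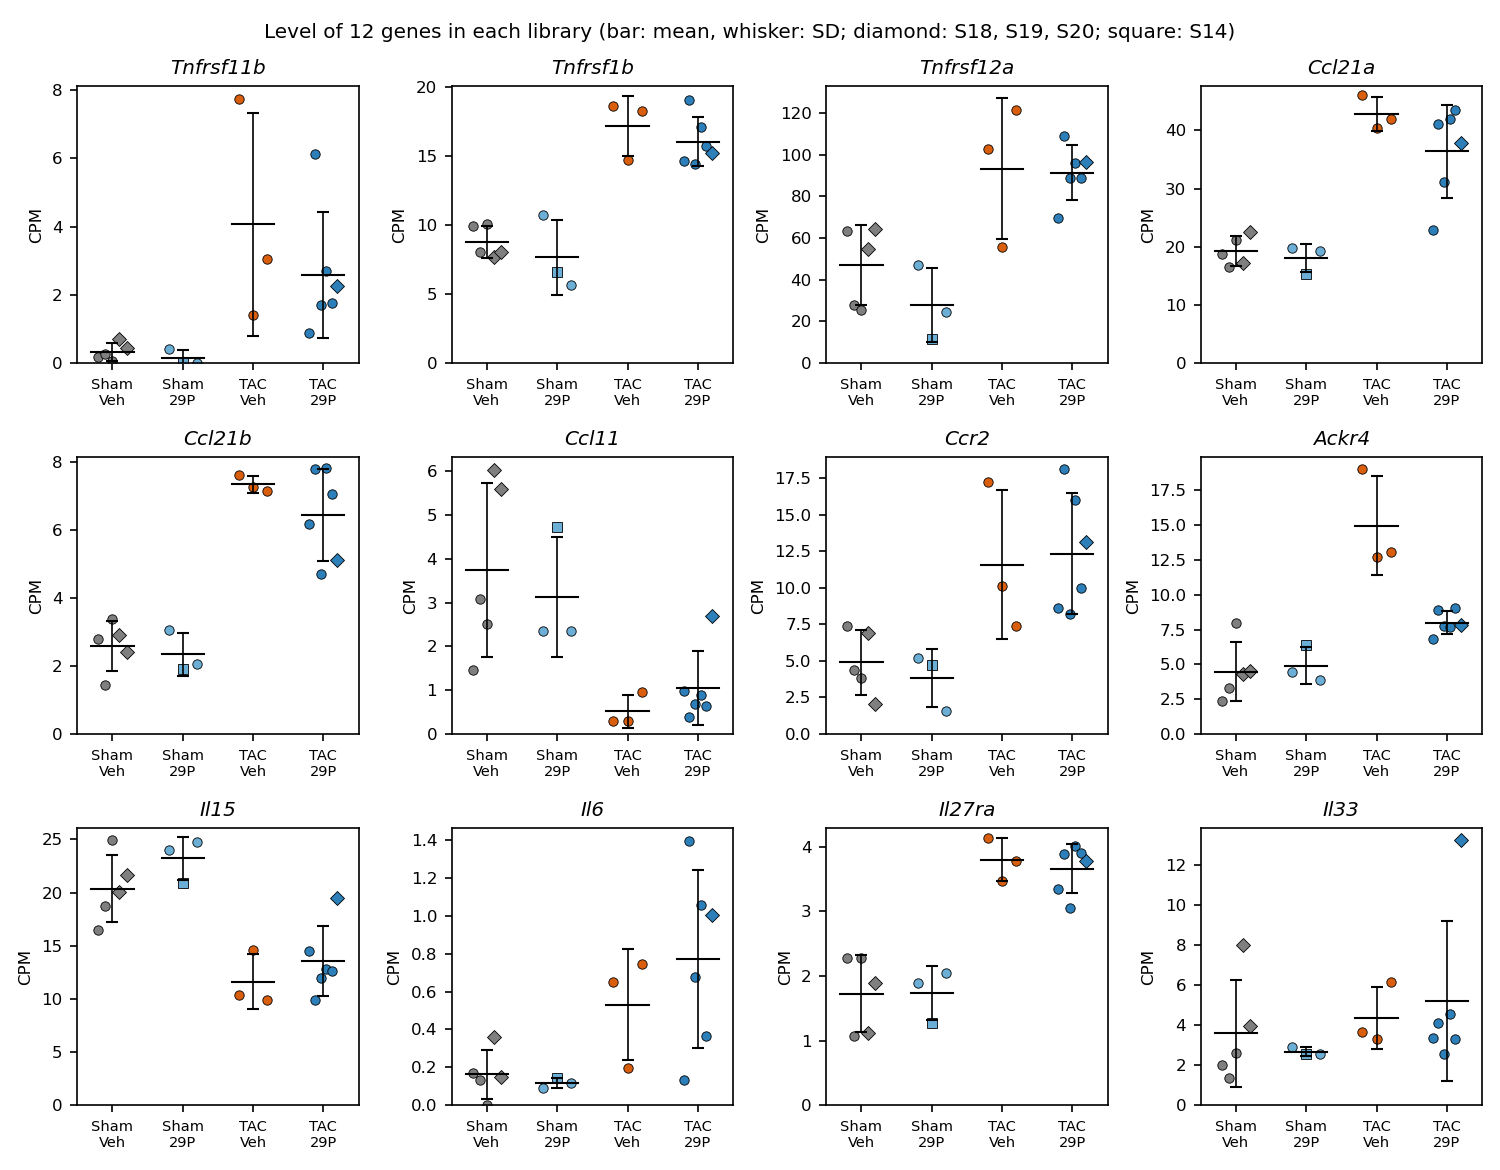
CPM (linear axis from 0) of 12 members in each of the 17 libraries by group, with a bar for the mean, a whisker for the SD, diamonds for S18, S19 and S20 and a square for S14. Tnfrsf1b in TAC libraries lay at 14.4 CPM or above and in Sham libraries at 10.7 CPM or below.

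CCL21 is the ligand of CCR7 that draws dendritic cells and T cells to lymphatic vessels, and mice carry several nearly identical copies of its gene. Ccl21a (chromosome 4, 42772860 to 42773993, minus strand, build mm10) was listed at 18.7, 16.5, 21.1, 17.3 and 22.5 CPM in Sham Veh, at 19.8, 15.3 and 19.2 in Sham 29P, at 46.1, 40.4 and 41.9 in TAC Veh, and at 22.9 to 43.4 with a median of 39.4 in TAC 29P. Every TAC library lay above every Sham library. Ccl21a rose by 1.16 (log2, SE 0.18, adjusted p = 0.00094) under Veh and by 0.98 (SE 0.17, adjusted p = 0.0020) under 29P, and by 0.83 and 0.64 with TMM factors, and the calls were kept when any 1 library was left out. Ccl21b rose by 1.52 (SE 0.25, adjusted p = 0.0013) and 1.42 (SE 0.24, adjusted p = 0.0016), from 1.44 to 3.39 CPM in Sham libraries to 4.70 to 7.83 CPM in TAC libraries.

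How far the copies can be separated is limited by their sequence. Bases 61 to 210 of the 402 coding bases, counted from the A of the start codon in GENCODE vM21, hold both differences between the coding sequences of Ccl21a and Ccl21b, written in capitals. They are T84A and C194T, with the base of Ccl21a first.
Ccl21a: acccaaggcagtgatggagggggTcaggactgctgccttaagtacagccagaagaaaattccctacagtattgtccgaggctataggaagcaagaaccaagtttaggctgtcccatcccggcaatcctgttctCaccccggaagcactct
Ccl21b: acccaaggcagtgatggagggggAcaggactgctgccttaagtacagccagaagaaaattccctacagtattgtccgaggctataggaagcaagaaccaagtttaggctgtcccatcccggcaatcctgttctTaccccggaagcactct
The ratio of Ccl21b to Ccl21d CPM lay within 1% of 1.06 in 14 of 17 libraries, so the values of the copies are not independent and the split of reads among them is uncertain. The lymphatic endothelial markers, where lymphatic CCL21 is made, had 2 of 4 genes higher under each treatment (Flt4 and Pdpn, and 1 and 0 of 4 with TMM factors), with a summed level of 80.1 to 96.4 CPM in Sham Veh, 86.6 to 116 in Sham 29P, 102 to 114 in TAC Veh and 96.4 to 116 in TAC 29P, and their part in the Ccl21a result was not tested.

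The receptor Ccr7 was scarce, at 0.0841 to 0.599 CPM in Sham Veh, 0 to 0.277 in Sham 29P, 0.267 to 1.22 in TAC Veh and 0.194 to 0.849 in TAC 29P. Its log2 fold change was 0.77 (SE 0.58, adjusted p = 0.32) under Veh and 1.55 (SE 0.56, adjusted p = 0.044) under 29P. The call under 29P was lost with TMM factors (adjusted p = 0.13) and in 7 of 9 fits that left out 1 library, with an adjusted p of up to 0.22.

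Ackr4, the atypical receptor that scavenges CCL19, CCL21 and CCL25, was the member in which TAC Veh and TAC 29P stood furthest apart by p. It was listed at 2.34, 3.28, 7.94, 4.28 and 4.49 CPM in Sham Veh, at 4.42, 6.41 and 3.87 in Sham 29P, at 19.05, 12.7 and 13.1 in TAC Veh, and at 6.80 to 9.07 with a median of 7.78 in TAC 29P. All TAC Veh libraries lay above all others, and the TAC 29P libraries lay above the Sham 29P libraries but overlapped Sham Veh. Ackr4 rose by 1.81 (SE 0.28, adjusted p = 0.00093) under Veh, a call kept with TMM factors (1.48) and in every fit that left out 1 library. Under 29P it rose by 0.72 (SE 0.27, adjusted p = 0.048), a call lost with TMM factors (0.39, adjusted p = 0.35) and in all 9 fits that left out 1 library, where the log2 fold change ranged from 0.57 to 0.93.

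Within TAC, Ackr4 was lower with 29P than with Veh by a log2 fold change of -0.87 (SE 0.27, unadjusted p = 0.0044), and its responses to TAC differed by -1.09 (SE 0.39, unadjusted p = 0.011), the latter at -0.99 and no longer past an unadjusted p of 0.05 with the run as a covariate. Neither passed adjustment over all genes (both adjusted p = 1.0). At an unadjusted p of at most 0.05, 2.06% of all genes passed in TAC 29P against TAC Veh, against 2 of the 92 members. Ackr4 (chromosome 9, 104084157 to 104126933, minus strand) shares 479 of its 5380 exon bases with Acad11 on the opposite strand. Acad11, an acyl-CoA dehydrogenase, was at 118 ± 21.8 CPM in Sham Veh, 123 ± 4.29 in Sham 29P, 103 ± 18.4 in TAC Veh and 108 ± 14.5 in TAC 29P (SD), and its part in the Ackr4 values was not tested. Whether counting used strand was not given in the sources used here.

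CXCL12 holds CXCR4-bearing cells in tissue, and ACKR3 takes up CXCL12. Cxcl12 was abundant at 127 to 241 CPM in Sham Veh, 142 to 188 in Sham 29P, 177 to 230 in TAC Veh and 178 to 254 in TAC 29P, and the groups overlapped. Its log2 fold change of 0.26 (SE 0.17, adjusted p = 0.25) under Veh and 0.34 (SE 0.16, adjusted p = 0.11) under 29P did not pass the test and was -0.08 and 0.00 with TMM factors.

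Ackr3 was at 58.3 to 67.5 CPM in Sham Veh, 46.3 to 62.5 in Sham 29P, 81.6 to 93.3 in TAC Veh and 65.7 to 91.1 in TAC 29P. The TAC libraries lay above the Sham libraries within each treatment, and Ackr3 rose by 0.50 (SE 0.12, adjusted p = 0.0086) and 0.54 (SE 0.11, adjusted p = 0.0045), in every fit that left out 1 library. With TMM factors neither call held (0.17 and 0.20). Cxcr4, at 2.64 to 9.72 CPM in Sham and 6.23 to 18.1 CPM in TAC libraries, rose by 1.30 (SE 0.40, adjusted p = 0.022) under 29P, and its log2 fold change under Veh was 1.12 (SE 0.41, adjusted p = 0.052). The 29P call was lost with TMM factors and without S14 or S15.

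CCL2 recruits monocytes through CCR2. Ccl2 was at 2.61 to 6.34 CPM in Sham Veh, 1.06 to 3.32 in Sham 29P, 1.12 to 5.74 in TAC Veh and 2.41 to 11.5 in TAC 29P, so the groups overlapped widely. Its log2 fold change was -0.20 (SE 0.51, adjusted p = 0.78) under Veh and 1.10 (SE 0.50, adjusted p = 0.092) under 29P. Ccr2, in contrast, was listed at 7.40, 4.39, 3.85, 6.88 and 2.05 CPM in Sham Veh, at 5.21, 4.72 and 1.58 in Sham 29P, at 17.3, 10.1 and 7.41 in TAC Veh, and at 8.19 to 18.1 with a median of 11.6 in TAC 29P. Every TAC library lay above every Sham library, with the lowest TAC Veh value beside the highest Sham Veh value.

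Ccr2 rose by 1.27 (SE 0.42, adjusted p = 0.037) under Veh and 1.76 (SE 0.41, adjusted p = 0.0070) under 29P. The Veh call was lost with TMM factors (0.94, adjusted p = 0.15) and in 5 of 8 fits that left out 1 library, and the 29P call was kept in these but lost with the run as a covariate (1.19, adjusted p = 0.085). Beside it, 11 of 12 macrophage and monocyte markers were higher under each treatment, and 3 and 9 of them with TMM factors. Their summed level was 365 to 426 CPM in Sham Veh, 246 to 482 in Sham 29P, 543 to 859 in TAC Veh and 528 to 697 in TAC 29P, with no overlap between TAC and Sham, and its part in the Ccr2 result was not tested.

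CX3CL1 is a membrane-bound chemokine of endothelium that can be shed, and its receptor CX3CR1 marks resident macrophages and patrolling monocytes. Cx3cl1 was at 3.98 to 11.2 CPM in Sham Veh, 3.45 to 11.4 in Sham 29P, 11.2 to 20.9 in TAC Veh and 11.7 to 21.4 in TAC 29P. It rose by 1.12 (SE 0.35, adjusted p = 0.027) under Veh and 1.41 (SE 0.34, adjusted p = 0.0078) under 29P, and only the 29P call was kept with TMM factors (1.08, adjusted p = 0.022), though not with the run as a covariate (0.98, adjusted p = 0.10). The Veh call was lost without S2, S16, S6 or S19 and the 29P call without S14 (largest adjusted p 0.17 and 0.078). Cx3cr1 ranged from 1.35 to 14.1 CPM in Sham and from 8.31 to 28.4 CPM in TAC libraries, and rose under 29P by 1.86 (SE 0.61, adjusted p = 0.029), a call lost with TMM factors (adjusted p = 0.10) and in 4 of 9 fits that left out 1 library.

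CXCL16 is both a scavenger receptor and the ligand of CXCR6, which is carried by memory T and NKT cells. Cxcl16 was listed at 10.2, 12.8, 12.1, 11.01 and 11.03 CPM in Sham Veh, at 11.4, 6.95 and 5.48 in Sham 29P, at 24.9, 13.7 and 17.2 in TAC Veh and at 13.2 to 22.0 with a median of 18.02 in TAC 29P, and every TAC library was above every Sham library. It rose by 0.66 (SE 0.23, adjusted p = 0.045) under Veh, lost with TMM factors and in 7 of 8 fits that left out 1 library. Under 29P it rose by 1.19 (SE 0.23, adjusted p = 0.0028), kept with TMM factors (0.85) and in all 9 such fits, but not with the run as a covariate (0.86, adjusted p = 0.054). Part of its exon sequence, 18.3%, is shared with Zmynd15. Cxcr6 was at 0.143 to 0.799 CPM in Sham and 0.440 to 3.84 in TAC libraries, rose by 1.53 (SE 0.53, adjusted p = 0.036) under 29P and had a log2 fold change of 1.45 (SE 0.54, adjusted p = 0.057) under Veh. The 29P call was lost with TMM factors and in 5 of 9 fits that left out 1 library.

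**Figure D4:**
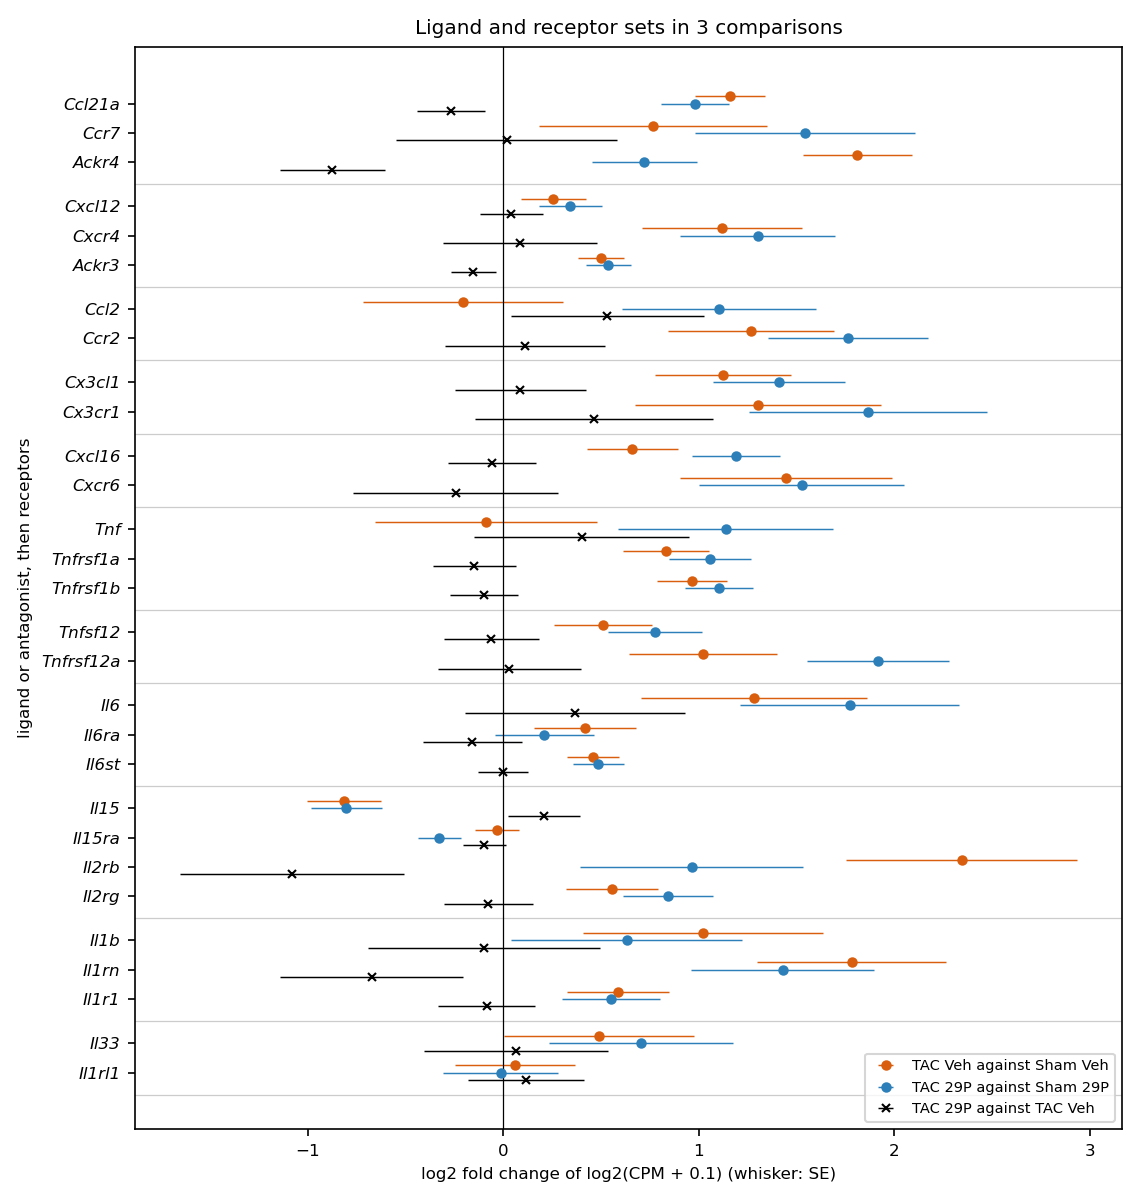
Log2 fold changes on log2(CPM + 0.1) with whiskers for the SE, for ligands or antagonists and then their receptors, in TAC Veh against Sham Veh, TAC 29P against Sham 29P (circles) and TAC 29P against TAC Veh (crosses). Cxcl12 did not pass the test while Ackr3 did in both comparisons, and Ccl2 did not pass while Ccr2 did in both.

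CXCL10 is induced by interferons and attracts CXCR3-bearing T and NK cells. Cxcl10 was listed at 0.967, 0.403, 0.428, 0.179 and 0.2498 CPM in Sham Veh, at 1.48, 0.282 and 0.235 in Sham 29P, at 3.79, 1.03 and 2.08 in TAC Veh, and at 0.545 to 3.19 with a median of 1.58 in TAC 29P. The Veh groups did not overlap and the 29P groups did. Cxcl10 rose under Veh by 2.12 (SE 0.59, adjusted p = 0.018, and 0.045 with TMM factors), a call lost without S2 or S16 with an adjusted p of up to 0.13. Under 29P its log2 fold change was 1.403 (SE 0.57, adjusted p = 0.066), and the difference between the responses was -0.72 (SE 0.82, unadjusted p = 0.39). Cxcl10 shares 133 exon bases with Art3 on the opposite strand, whose mean was 236 CPM in Sham Veh and 172 in TAC Veh.

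Promoter windows of 300 bases (250 before to 50 after the start, RefSeq, GRCm38.p6, minus strand for these genes) are shown for Cxcl10, for Tnfrsf1b, a TNF receptor called higher under both treatments and both scalings, and for Ccl21a. Capitals mark a pair of GAAA half-sites spaced by 2 bases, the core of the interferon-stimulated response element (ISRE), on either strand, and the NF-kB decamer, in Cxcl10 as 2 overlapping matches at the second position.
Cxcl10, chr5:92348840-92349139: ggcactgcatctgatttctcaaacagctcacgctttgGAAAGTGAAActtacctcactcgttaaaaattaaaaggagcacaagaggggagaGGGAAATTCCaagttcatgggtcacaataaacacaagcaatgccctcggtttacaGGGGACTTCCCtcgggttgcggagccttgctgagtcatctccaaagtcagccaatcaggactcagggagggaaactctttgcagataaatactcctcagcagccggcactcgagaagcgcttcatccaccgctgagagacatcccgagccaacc
Tnfrsf1b, chr4:145246821-145247120: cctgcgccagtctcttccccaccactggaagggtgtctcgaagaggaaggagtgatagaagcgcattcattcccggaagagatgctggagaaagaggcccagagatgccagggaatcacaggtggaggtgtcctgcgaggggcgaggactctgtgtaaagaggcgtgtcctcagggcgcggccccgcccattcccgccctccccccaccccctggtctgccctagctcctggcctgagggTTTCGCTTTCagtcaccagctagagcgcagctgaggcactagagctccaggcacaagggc
Ccl21a, chr4:42773942-42774241: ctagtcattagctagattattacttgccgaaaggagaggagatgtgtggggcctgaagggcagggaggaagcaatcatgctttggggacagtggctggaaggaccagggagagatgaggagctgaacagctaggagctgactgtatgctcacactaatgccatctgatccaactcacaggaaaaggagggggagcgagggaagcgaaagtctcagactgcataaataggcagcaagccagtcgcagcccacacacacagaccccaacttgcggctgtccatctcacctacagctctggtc
The window of Cxcl10 holds the ISRE core starting at base 38 and NF-kB decamers starting at bases 92, 147 and 148, that of Tnfrsf1b holds the ISRE core on the reverse strand starting at base 241, and that of Ccl21a holds neither. The ISRE core was present in 3.44% of 32851 RefSeq promoter windows of this length and in 7 of the 68 tested members with a window. The NF-kB decamer was present in 8.46% and in 13 of 68. A member counted if any of its windows matched, whereas the percentages are per window, so these figures are not on the same scale. A match describes the sequence and does not show a bound site.

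Ccl11 (eotaxin, the attractant of eosinophils, chromosome 11, 82057823 to 82062955) was the chemokine ligand lower in TAC. It was listed at 1.47, 3.09, 2.52, 6.03 and 5.59 CPM in Sham Veh, at 2.35, 4.72 and 2.35 in Sham 29P, at 0.299, 0.293 and 0.960 in TAC Veh, and at 0.398 to 2.71 with a median of 0.788 in TAC 29P. The Veh groups did not overlap, and 1 TAC 29P library lay above 2 of the Sham 29P libraries. Ccl11 fell by 2.63 (SE 0.52, adjusted p = 0.0037) under Veh in every fit that left out 1 library, and fell by 1.65 (SE 0.50, adjusted p = 0.022) under 29P, a call lost without S14 (adjusted p = 0.15). Both calls were kept with TMM factors (-2.92 and -1.97). The 2 highest Sham Veh values, 6.03 and 5.59 CPM, were those of S19 and S20, which held atrial transcripts. With the run as a covariate the log2 fold changes were -2.26 and -1.56, and both calls were kept.

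Ccl5, made by T and NK cells and macrophages, rose under Veh by 1.495 (SE 0.48, adjusted p = 0.031), from 0.0841 to 0.238 CPM in Sham Veh to 0.342 to 1.397 in TAC Veh. The call was lost without S2 or S19 and with TMM factors. Under 29P its log2 fold change was 0.27 (SE 0.46, adjusted p = 0.67), and the responses differed by -1.22 (SE 0.66, unadjusted p = 0.081). Cxcl5, a neutrophil attractant, was listed at 0.1497, 0.245 and 0.267 CPM in TAC Veh and at 0.268 to 0.818 with a median of 0.424 in TAC 29P. The TAC groups did not overlap (1.83% of all genes) but lay side by side, and the log2 fold change of 0.84 (SE 0.36, unadjusted p = 0.034) did not pass adjustment (adjusted p = 1.0). With the run as a covariate it was 0.80 and no longer past an unadjusted p of 0.05. Of 5 neutrophil markers, 2 were tested and none passed in any comparison.

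TNF acts through the death-domain receptor TNFR1 (Tnfrsf1a), which is on nearly all cells, and TNFR2 (Tnfrsf1b), which is inducible and signals through TRAF2. The ligand Tnf was scarce, at 0.134 to 0.940 CPM in Sham Veh, 0.0705 to 0.507 in Sham 29P, 0.160 to 0.685 in TAC Veh and 0.252 to 1.25 in TAC 29P. Its log2 fold change was -0.09 (SE 0.57, adjusted p = 0.92) under Veh and 1.14 (SE 0.55, adjusted p = 0.11) under 29P.

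The receptors rose. Tnfrsf1b (chromosome 4, 145213463 to 145246870, minus strand) was listed at 9.93, 8.05, 10.1, 7.68 and 8.04 CPM in Sham Veh, at 10.7, 6.63 and 5.63 in Sham 29P, at 18.6, 14.7 and 18.2 in TAC Veh, and at 14.4 to 19.1 with a median of 15.5 in TAC 29P. Every TAC library lay above every Sham library. It rose by 0.96 (SE 0.18, adjusted p = 0.0027) and by 1.10 (SE 0.17, adjusted p = 0.0012), with TMM factors by 0.64 and 0.77, and in every fit that left out 1 library. Tnfrsf1a, at 21.8 to 32.9 CPM in Sham Veh, 13.1 to 31.7 in Sham 29P, 41.0 to 60.7 in TAC Veh and 39.3 to 54.8 in TAC 29P, rose by 0.83 (SE 0.22, adjusted p = 0.014) and 1.06 (SE 0.21, adjusted p = 0.0033). Its Veh call was lost with TMM factors (adjusted p = 0.069) and without S2 (adjusted p = 0.10).

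Tnfrsf11b encodes osteoprotegerin, the soluble decoy receptor for RANKL and TRAIL, and had the largest log2 fold change of the members in both surgery comparisons. It was listed at 0.168, 0.268, 0.0475, 0.715 and 0.450 CPM in Sham Veh, at 0.415, 0 and 0 in Sham 29P, at 7.73, 1.42 and 3.04 in TAC Veh, and at 0.894 to 6.13 with a median of 2.02 in TAC 29P. Every TAC library lay above every Sham library. It rose by 3.19 (SE 0.67, adjusted p = 0.0051) under Veh, lost without S2 (adjusted p = 0.059), and by 3.72 (SE 0.65, adjusted p = 0.0019) under 29P, where 2 Sham libraries are listed at 0 and the size depends on the 0.1 CPM added. With TMM factors the changes were 2.91 and 3.57, and both passed. The ligand RANKL (Tnfsf11) did not reach 0.5 CPM in 3 libraries.

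TWEAK (Tnfsf12) and its receptor Fn14 (Tnfrsf12a), which is induced in injured tissue, form a further pair. Tnfrsf12a was listed at 63.6, 27.8, 25.2, 55.0 and 64.4 CPM in Sham Veh, at 47.2, 11.8 and 24.6 in Sham 29P, at 103, 55.9 and 121 in TAC Veh, and at 69.6 to 109 with a median of 92.5 in TAC 29P. The 29P groups did not overlap, whereas the lowest TAC Veh library lay within Sham Veh. Tnfrsf12a rose by 1.92 (SE 0.37, adjusted p = 0.0028) under 29P, with TMM factors by 1.58, and in every fit that left out 1 library. Under Veh its log2 fold change was 1.02 (SE 0.38, adjusted p = 0.053), and the responses differed by 0.89 (SE 0.53, unadjusted p = 0.11).

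Among Sham mice, Tnfrsf12a had a log2 fold change of -0.86 with 29P (SE 0.38, unadjusted p = 0.034, adjusted p = 0.72). This value was -0.06 without S14, S18, S19 and S20, a setting chosen after seeing the data. Tnfsf12 was at 5.28 to 11.8 CPM in Sham Veh, 4.57 to 10.2 in Sham 29P, 11.1 to 13.9 in TAC Veh and 10.2 to 15.3 in TAC 29P. It rose under 29P by 0.78 (SE 0.24, adjusted p = 0.024), a call lost with TMM factors (0.44) and in 3 of 9 fits that left out 1 library.

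Of the other TNF receptors, Tnfrsf23, a decoy receptor for TRAIL, rose by 1.05 (SE 0.24, adjusted p = 0.0075) and 1.06 (SE 0.23, adjusted p = 0.0055) and was kept with TMM factors, though under Veh not without S2 (adjusted p = 0.059). Tnfrsf10b, the TRAIL death receptor, rose by 0.98 and 1.25 (adjusted p = 0.033 and 0.0088), and only the 29P call was kept with TMM factors. Tnfrsf13b encodes TACI, a receptor of B cells and plasma cells. It was at 0.313 to 1.01 CPM in Sham Veh, 0.282 to 1.38 in Sham 29P, 1.49 to 2.19 in TAC Veh and 1.45 to 3.04 in TAC 29P, and rose by 1.26 (SE 0.40, adjusted p = 0.030) and 1.499 (SE 0.38, adjusted p = 0.011). The Veh call was lost with TMM factors and in 4 of 8 fits that left out 1 library, and the 29P call without S14 (adjusted p = 0.10). Of the 4 B cell markers, 1 was higher under Veh and 4 under 29P. Their summed level was 0.849 to 4.99 CPM in Sham Veh, 0.775 to 1.84 in Sham 29P, 3.52 to 8.03 in TAC Veh and 3.78 to 13.3 in TAC 29P. In Sham 29P against Sham Veh, 2 of the 4 were lower at an unadjusted p of at most 0.05 (5.15% of all genes), and none passed adjustment. The part of these markers in the Tnfrsf13b result was not tested.

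IL-6 signals through its receptor (Il6ra) and the shared chain gp130 (Il6st). Il6 was listed at 0.168, 0.134, 0, 0.357 and 0.1499 CPM in Sham Veh, at 0.0922, 0.141 and 0.117 in Sham 29P, at 0.649, 0.196 and 0.746 in TAC Veh, and at 0.134 to 1.39 with a median of 0.843 in TAC 29P. The groups overlapped under both treatments. Il6 rose under 29P by 1.77 (SE 0.56, adjusted p = 0.026), a call lost with TMM factors (adjusted p = 0.082) and in 3 of 9 fits that left out 1 library, and its log2 fold change under Veh was 1.28 (SE 0.58, adjusted p = 0.10).

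Il6st was at 102 to 157 CPM in Sham Veh, 118 to 154 in Sham 29P, 173 to 203 in TAC Veh and 162 to 220 in TAC 29P. It rose by 0.46 (SE 0.13, adjusted p = 0.021) and 0.49 (SE 0.13, adjusted p = 0.012), near the median of all genes, and by 0.13 and 0.15 with TMM factors, where neither passed. The Il6ra log2 fold change was 0.42 and 0.21 and did not pass (adjusted p = 0.23 and 0.53), and was -0.12 under 29P with TMM factors.

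IL-15 supports NK cells and memory CD8 T cells and is presented by its receptor chain IL-15Rα (Il15ra). Il15 (chromosome 8, 82331632 to 82403222, minus strand) was listed at 16.5, 18.7, 25.0, 20.1 and 21.6 CPM in Sham Veh, at 24.0, 20.9 and 24.8 in Sham 29P, at 10.4, 14.6 and 9.92 in TAC Veh, and at 9.91 to 19.5 with a median of 12.7 in TAC 29P. Every TAC library lay below the Sham libraries of its treatment. Il15 fell by 0.81 (SE 0.19, adjusted p = 0.0079) and by 0.80 (SE 0.18, adjusted p = 0.0064), and with TMM factors by 1.14 under each treatment. Without S2 the Veh call was lost (adjusted p = 0.064).

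IL-15Rα works with the chain Il2rb. Il15ra was at 15.1 to 16.8 CPM in Sham Veh and 14.6 to 16.8 in TAC Veh, and at 16 to 21.5 in Sham 29P and 13.6 to 15.6 in TAC 29P. It fell under 29P by 0.33 (SE 0.11, adjusted p = 0.033), lost in 5 of 9 fits that left out 1 library, and with TMM factors was lower under both treatments (-0.36 and -0.66). Il2rb, the chain shared by the IL-2 and IL-15 receptors, rose under Veh by 2.35 (SE 0.59, adjusted p = 0.012, and 0.026 with TMM factors), from 0 to 0.523 CPM in Sham Veh to 1.01 to 2.74 in TAC Veh, lost without S2 (adjusted p = 0.095). Under 29P its log2 fold change was 0.96 (SE 0.57, adjusted p = 0.19), and the responses differed by -1.38 (SE 0.82, unadjusted p = 0.11). T cell markers were higher for 3 of 4 genes under Veh and 2 of 4 under 29P (0 and 1 with TMM factors), with summed levels of 1.06 to 3.55 CPM in Sham and 3.30 to 7.98 CPM in TAC libraries. Of 4 NK cell markers only Gzma was tested. It was higher under 29P but not under Veh, and under neither with TMM factors. The NK markers summed to 0.358 to 0.599 CPM in Sham Veh, 0.293 to 0.352 in Sham 29P, 0.693 to 3.44 in TAC Veh and 0.817 to 3.54 in TAC 29P. The part of either marker list was not tested.

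Of the IL-1 family, Il1b was at 0.0894 to 1.38 CPM in Sham and 0.499 to 2.45 CPM in TAC libraries and did not pass (log2 fold change 1.02 and 0.63, adjusted p = 0.21 and 0.42). Il1rn, the soluble antagonist of the IL-1 receptor, was listed at 0 to 0.268 CPM in Sham Veh, 0 to 0.184 in Sham 29P, 0.587 to 0.798 in TAC Veh and 0.227 to 0.881 in TAC 29P. Within each treatment the TAC and Sham libraries did not overlap. Il1rn rose by 1.78 (SE 0.48, adjusted p = 0.016) and 1.43 (SE 0.47, adjusted p = 0.030), with both calls lost with TMM factors (adjusted p = 0.052 and 0.093).

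The alarmin Il33 was at 1.34 to 7.998 CPM in Sham and 2.57 to 13.2 CPM in TAC libraries, and its receptor Il1rl1 (ST2) at 1.16 to 2.17 and 1.29 to 3.44. Neither passed under either treatment (Il33 0.49 and 0.71, adjusted p = 0.45 and 0.25, and Il1rl1 0.06 and -0.01, adjusted p = 0.89 and 0.98). Il1rl2, the receptor of IL-36, rose by 1.02 and 0.86 (adjusted p = 0.0066 and 0.011), the first of which was kept with TMM factors. Il18bp, the soluble inhibitor of IL-18, rose by 1.004 (SE 0.22, adjusted p = 0.0063) and 0.74 (SE 0.21, adjusted p = 0.018), and only the Veh call was kept with TMM factors (0.68). Il18 and Il10 did not reach 0.5 CPM in 3 libraries and were not tested.

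Ccr1, a receptor for CCL3 and CCL5 on monocytes, rose by 1.18 and 1.11 (adjusted p = 0.040 and 0.038), and Il4ra, the shared chain for IL-4 and IL-13, by 0.95 and 0.87 (adjusted p = 0.042 and 0.044). Il3ra, the IL-3 receptor chain, was at 1.06 to 1.89 CPM in Sham and 2.18 to 4.48 CPM in TAC libraries and rose by 1.103 and 1.097 (adjusted p = 0.013 and 0.0099), without overlap. All 6 calls were lost with TMM factors, and each in at least 1 fit that left out 1 library, the Il3ra calls without S2 and without S14 (adjusted p = 0.099 and 0.072). Il17rc, a chain of the IL-17 receptor, rose by 0.88 and 1.08 (adjusted p = 0.032 and 0.010), and only the 29P call was kept with TMM factors (adjusted p = 0.048). That call was lost without S14 (adjusted p = 0.088), and the Veh call in 5 of 8 fits that left out 1 library.

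Il34, a ligand of the CSF-1 receptor, rose under Veh by 1.08 (adjusted p = 0.046), and its log2 fold change under 29P was 0.84 (adjusted p = 0.087). Il18rap, the accessory chain of the IL-18 receptor, rose under Veh by 1.84 (SE 0.59, adjusted p = 0.031), from 0 to 0.589 CPM to 0.734 to 1.65 CPM, and was at 0.57 under 29P (adjusted p = 0.45). The neutrophil attractant Cxcl2 rose under 29P by 1.31 (adjusted p = 0.048) and Il16, a ligand of CD4, by 1.12 (adjusted p = 0.016), with log2 fold changes of 0.65 and 0.81 under Veh (adjusted p = 0.33 and 0.073). These 4 calls were lost with TMM factors, and in fits that left out 1 library the Il34 call was lost in 5 of 8, the Il18rap call in 4 of 8, the Cxcl2 call in 6 of 9 and the Il16 call without S14 or S15. Il16 shares 15.3% of its exon sequence with Stard5 on the opposite strand. Il1r1, the IL-1 receptor, at 0.59 and 0.55, and Tnfsf10 (TRAIL), a death receptor ligand, at 0.53 and 0.49, did not pass (adjusted p from 0.095 to 0.22).

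Il27ra, the specific chain of the IL-27 receptor, was listed at 2.27, 1.07, 2.28, 1.12 and 1.90 CPM in Sham Veh, at 1.89, 1.27 and 2.05 in Sham 29P, at 4.14, 3.47 and 3.79 in TAC Veh, and at 3.05 to 4.01 with a median of 3.83 in TAC 29P. Every TAC library lay above every Sham library. It rose by 1.16 (SE 0.25, adjusted p = 0.0059) and 1.05 (SE 0.24, adjusted p = 0.0069), and with TMM factors by 0.84 and 0.73. Each call was lost without 1 library, S2 under Veh (adjusted p = 0.053) and S14 under 29P (adjusted p = 0.061).

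The comparisons of 29P with Veh asked whether treatment altered these genes within a surgery. No member passed adjustment in TAC 29P against TAC Veh, in Sham 29P against Sham Veh or in the difference between responses, by limma with the deposited CPM or with TMM factors. At an unadjusted p of at most 0.05, TAC 29P against TAC Veh held Cxcl5 higher and Ackr4 lower. Sham 29P against Sham Veh held 3 lower members, Cxcl16 (-0.58, SE 0.23, unadjusted p = 0.022), Tnfsfm13 (unadjusted p = 0.029) and Tnfrsf12a, beside 6.72% of all genes in either direction and 5.15% lower. Tnfsfm13 is a readthrough transcript that shares exon bases with Tnfsf12 and Tnfsf13 on the same strand. The difference between responses held Ackr4 lower and Cxcl5 higher (1.25, SE 0.52, unadjusted p = 0.028), beside 2.85% of all genes. These comparisons share libraries with the surgery comparisons.

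Leaving out single libraries changed how many calls were made. Of 37 calls under Veh, 6 were kept in every such fit (Tnfrsf1b, Ccl21a, Ccl21b, Ccl11, Ackr3 and Ackr4), and of 42 under 29P, 11 were kept (Tnfrsf12a, Tnfrsf1a, Tnfrsf1b, Tnfrsf23, Tnfrsf11b, Ccl21a, Ccl21b, Cxcl16, Ackr3, Ccr2 and Il15). Of the calls, 31 of 37 under Veh were lost without S2 and 13 without S16, and 30 of 42 under 29P were lost without S14 and 14 without S15. Without S2, 5 members were higher and 1 was lower under Veh, and 464 of all genes were higher instead of 3827. Without S14, 11 members were higher under 29P, and 1009 of all genes were higher instead of 5110.

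**Figure D5:**
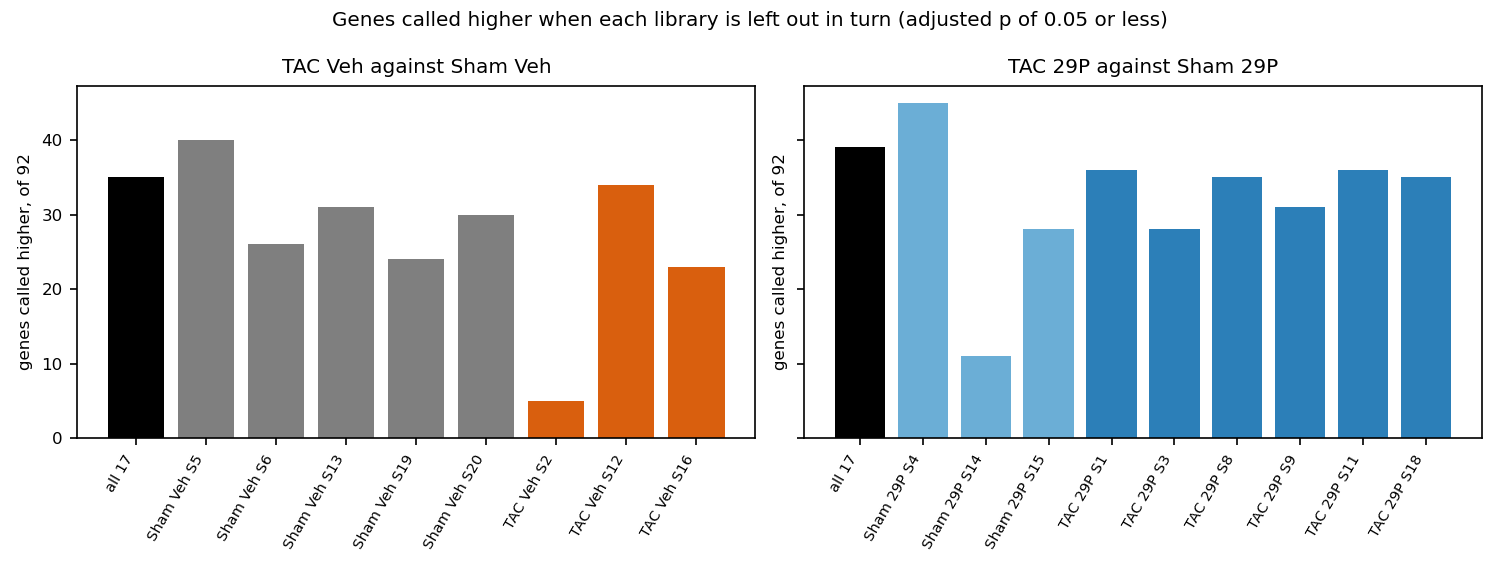
Number of the 92 members called higher in TAC for each surgery comparison when each library was left out in turn, as bars from 0 with the count over all 17 libraries in black. The count fell from 35 to 5 without S2 under Veh and from 39 to 11 without S14 under 29P.

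Of genes downstream or beside the members, 21 of 36 in the NF-kB arm were higher under Veh and 20 under 29P (3 and 9 with TMM factors), with a median log2 fold change of 0.54 and 0.57. Over all genes, 23.6% and 31.5% were higher (4.33% and 6.36% with TMM factors), at a median of 0.33 and 0.36. Nfkb2, the precursor of the p52 subunit, rose by 0.69 (SE 0.21, adjusted p = 0.025) and 0.85 (SE 0.20, adjusted p = 0.0075), and Birc3, an adaptor of TNF receptor signaling, by 0.61 and 0.88 (adjusted p = 0.018 and 0.0026). Both were kept with TMM factors under 29P only. In the JAK-STAT arm, 13 of 24 tested genes were higher under Veh and 10 under 29P (2 and 1 with TMM factors, which also called 1 lower under 29P). Stat3, the transducer of gp130, rose by 0.60 and 0.63 (adjusted p = 0.037 and 0.023) and its target and inhibitor Socs3 had 1.16 and 0.75 (adjusted p = 0.069 and 0.20).

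Among 27 tested cytokines and receptors outside the member families, 12 were higher under Veh, and 14 were higher and 1 lower under 29P, beside the same shares of all genes. With TMM factors 5 were higher and 2 lower under Veh, and 6 were higher and 2 lower under 29P. Gdf15, a stress-induced cytokine of the TGF-β superfamily, rose by 2.93 (SE 0.52, adjusted p = 0.0020) and 2.69 (SE 0.51, adjusted p = 0.0027). Both calls were kept with TMM factors. Lifr, the receptor chain for leukemia inhibitory factor that pairs with gp130, fell by 0.52 (SE 0.13, adjusted p = 0.0088) under 29P, and its log2 fold change under Veh was -0.19 (adjusted p = 0.27).

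Markers of some other cells also differed after TAC, whereas neutrophil, mesothelial and adipocyte markers had no call in either surgery comparison. Fibroblast markers were higher for 6 of 7 genes under Veh and 7 of 7 under 29P (3 and 4 with TMM factors), at summed levels of 776 to 1236 CPM in Sham Veh, 700 to 865 in Sham 29P, 1891 to 3268 in TAC Veh and 1169 to 3132 in TAC 29P. Endothelial markers were higher for 3 and 5 of 5 genes, and for none with TMM factors. Of 6 cardiomyocyte markers, Tnni3 was lower under Veh and Actc1 higher under 29P, and 4 and 2 were lower with TMM factors. Red blood cell globins were higher for 4 of 4 genes under Veh (0 with TMM factors) and 0 of 4 under 29P, and 4 of 4 were lower at an unadjusted p of at most 0.05 in TAC 29P against TAC Veh, where none passed adjustment. Exact permutation tests of the summed marker levels (two-sided, 56 tests) cannot give a p below 0.036 for 3 against 5 libraries or 0.024 for 3 against 6, and the smallest adjusted p was 0.14. Their part in the results of the members was not tested.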

How the data were processed

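Per the labels and the study's methods, the authors aligned the reads with STAR 2.3.7, run in Partek, against mm10, quantified genes and deposited CPM plus 0.0001. Whole reads were not recovered (81.0% to 84.1% of low values per library were whole multiples of the smallest step, tolerance 0.02), so no count model was run. Groups came from the sample labels. Genes at 0.5 CPM or more in 3 libraries entered limma (3.58.1, R 4.3.3, trend) on log2(CPM + 0.1) with 4 group means. The study's threshold was an unadjusted p of 0.05, and here calls use Benjamini-Hochberg adjustment over 16218 genes. A fold change of a low gene is understated on this scale. Nothing in the labels groups the mice by litter or day, and p-values measure the spread between these libraries. Alternatives were TMM and median-of-ratios factors, totals without mitochondrial genes, other added constants and filters, and leaving out libraries. A further alternative was a covariate for the 4 runs (clusters) of the number in the library labels. S18, S19 and S20 form 1 of these runs. The code was tested on simulated data. Figures and tables used Python 3.11.15, pandas 2.3.3, scipy 1.17.1 and matplotlib 3.10.9. Chromosome positions are from GENCODE vM21 and promoters from RefSeq.

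Members and lists were chosen with earlier results of these data known. Genes named were, per role class, the 5 largest called changes in each surgery comparison, those at an unadjusted p of 0.05 or less in the other comparisons (up to 10 each), 25 textbook genes, and the most abundant gene of each class. Ccl21a, Il10rb, Il15ra and Il18bp lie outside this rule and were chosen after their values were seen. Il4i1, Tnfrsf22, Il2rg, Tnfsf11 and Tnfsf13 also lie outside it and appear only in passing or in lists of calls.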

Additional observations from a re-analysis of the deposited data

Results flagged for a closer look

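In groups of 4 to 10 libraries, 96 groups of member values were examined for a library far from the rest, and 5 were marked, where chance marks about 1 in 20. Of these, 4 concern S18, the TAC 29P library with atrial transcripts. In TAC 29P, Il33 was at 13.2 CPM in S18 against 2.57 to 4.54 CPM in the other 5 libraries, and the IL-1 receptor Il1r1 was at 39.0 CPM against 18.8 to 24.4. In the same group, Cxcr4 was at 6.23 CPM in S18 against 11.8 to 15.6 CPM, and the IL-36 receptor Il1rl2 at 3.78 CPM against 5.54 to 6.90. In Sham Veh, Tnfrsf13b was at 0.313 CPM in S19, which also holds atrial transcripts, against 0.761 to 1.01 CPM in the other 4 libraries.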

How the results depend on the processing

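No paired analysis was possible because the groups share no replicate number. Sign changes were followed only in the comparisons that named a gene, and under Veh for the textbook and most abundant genes. None of the 51 surgery calls among these tests changed sign under the alternatives run. Of the 14 surgery tests among them without a call, Ccl2, Cxcl12, Il1rl1 and Tnf changed sign under at least 1 alternative. Other surgery tests of named genes, such as Il6ra under 29P, were not among them. The count of members higher under Veh (35, beside 3827 of all genes) was 12 with TMM factors (702) and 12 with median-of-ratios factors (749). It was 18 with totals without mitochondrial genes (1723) and 43 with the run as a covariate (3326). It was 5 to 40 when 1 library was left out (464 to 4425). When 1 library was left out, that of members lower (2) was 1 to 2. The count higher under 29P (39, beside 5110 of all genes) was 15 with TMM (1032) and 15 with median-of-ratios factors (977). It was 23 without mitochondrial genes in the totals (2094) and 12 with the run as a covariate (820). When 1 library was left out it was 11 to 45 (1009 to 6347). Without S14, S18, S19 and S20 (chosen after seeing the data) it was 16 (1330). Without S18, S19 and S20, also chosen after seeing the data, the counts were 24 higher and 2 lower under Veh. Under 29P they were 38 higher and 3 lower. Over all genes, 2333 were higher and 167 lower under Veh in that setting, and 5084 were higher and 237 lower under 29P. Without adjustment, at p up to 0.05, TAC 29P against TAC Veh held 1 higher and 1 lower member, Sham 29P against Sham Veh 3 lower, and the difference between responses 1 higher and 1 lower. Of those 51 calls, TMM factors removed 26, and 19 no longer passed once the fit included the runs of the label number. The cause of these changes was not tested. With 3 libraries in Sham 29P and TAC Veh and levels under 1 CPM for many ligands, differences may be missed, and not only small ones. A comparison without a call does not show equal levels.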
